A study of Mus musculus with 48 samples.

Results

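The comparison described here set cerebella with a conditional knockout of Chd4 (cKO) against wild-type (WT) cerebella, both from mice at postnatal days 27 to 28. The rule took the 4 cKO and 4 WT messenger RNA libraries, 8 of the 48 samples of the series, and all 5508 genes that the authors' deposited table lists for them out of about 27100 features tested. The other samples are chromatin, rotarod training and ribosome pull-down libraries and do not enter. Total RNA came from the whole cerebellum and was reverse-transcribed from its poly(A) tails, so each library averages over all cell types of that tissue. The sources used here give neither the Cre driver nor the deleted exons, the strain or the sex of the mice.

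Chd4 is an ATPase that slides nucleosomes, and is a core subunit of the NuRD complex, which joins nucleosome remodelling to histone deacetylation and is known mainly for keeping genes at low activity. The cerebellum holds mostly granule neurons, small excitatory cells whose parallel fibres contact Purkinje cells, the output neurons of its cortex. Interneurons, Bergmann glia, oligodendrocytes and vessels make up the remainder. The authors kept in the table only genes that their test passed at an adjusted p of 0.05, and other genes have no value here. Below, a gene is called higher or lower in cKO where it passed that test, and the words rose and fell are kept for genes that also passed limma, a moderated linear model refitted to the deposited values. Levels are in CPM, which sets the reads of a gene against all reads of its library, and differences are log2 CPM in cKO minus log2 CPM in WT, ± SE, with 4 libraries per genotype.

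Chd4 itself was measured first. It stood at 324, 348, 341 and 317 CPM in WT libraries 1 to 4 and at 267, 238, 239 and 239 CPM in cKO libraries 1 to 4. Each cKO library lay below each WT library, and cKO library 1 was the highest of its group. The log2 difference was -0.44 ± 0.06 (limma adjusted p = 0.00199). The tissue kept most of its Chd4 reads, and a gene total does not show which exons they cover or which cells they come from.

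Effective depth, read from the whole-read steps of low values, was 13.7 to 15.6 M reads per library. In both genotypes libraries 1 and 2 stood apart from libraries 3 and 4 along the first axis of the deviations from the genotype means, which took 44.3% of their variance among genes at or above the median level. The sources used here do not say what the library number stands for. The difference between genotypes had the same sign within libraries 1 and 2 for 5504 of the 5508 genes, and within libraries 3 and 4 for 5501. The genes were listed for differing over these same 8 libraries, so this agreement was largely set by that choice and does not measure reproducibility.

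Listed markers of cell types moved with genotype and are given here because they bear on each group below. The tissue label held, with the granule neuron genes Cbln3 and Pax6 and the Purkinje cell gene Pcp2 present in all 8 libraries. Of 117 markers of all other cell types 52 were listed, 2 higher and 50 lower in cKO, 1 and 22 of them past limma, with a median difference of -0.32. Of all features tested, 9.29% were listed as lower, and 5.04% were lower and past limma. The sums below hold only listed markers, which were chosen for differing, and unlisted markers have no value. Listed were 12 of 15 Purkinje cell markers, 7 of 14 of inhibitory interneurons and Golgi cells, and 12 of 22 of granule neurons. Among glia they were 5 of 16 astrocyte and Bergmann glia markers, 9 of 18 of oligodendrocytes and 1 of 14 of microglia. The remainder were 6 of 17 vascular markers, 9 of 15 of meninges and choroid plexus and 3 of 8 of red blood cells. Where all listed markers of a type were lower, lower sums in cKO follow from that choice. Genotypes did not overlap in 78.0% of all listed genes. The 12 listed Purkinje cell markers, all lower, summed to between 9241 and 9807 CPM in WT libraries and to between 7870 and 8439 CPM in cKO libraries. The 5 listed astrocyte and Bergmann glia markers summed to between 4299 and 4474 CPM in WT and to between 3677 and 3979 CPM in cKO. Vascular markers likewise did not overlap between genotypes, at 131 to 161 CPM in WT and 99.7 to 119 CPM in cKO, nor did those of inhibitory interneurons, at 544 to 616 and 428 to 501 CPM. The 9 listed oligodendrocyte markers did overlap, at 5239 to 6998 CPM in WT and 5122 to 5426 CPM in cKO, with WT libraries 1 and 4 the highest. The 9 listed meningeal and choroid plexus markers, all lower and none past limma, summed to 319 to 430 CPM in WT and 277 to 294 CPM in cKO. The 1 listed microglia marker, Ctss, was higher and did not pass limma (0.41 ± 0.14, adjusted p = 0.117), and of 3 listed red blood cell markers 1 was higher and 2 lower. The 12 listed granule neuron markers, 5 higher and 7 lower, summed to 5903 to 6336 CPM in WT and 5848 to 5971 CPM in cKO. In RNA of a whole tissue, fewer cells of a type and less RNA per cell cannot be told apart, and the part of these shifts in the differences below was not tested.

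**Figure D1:**
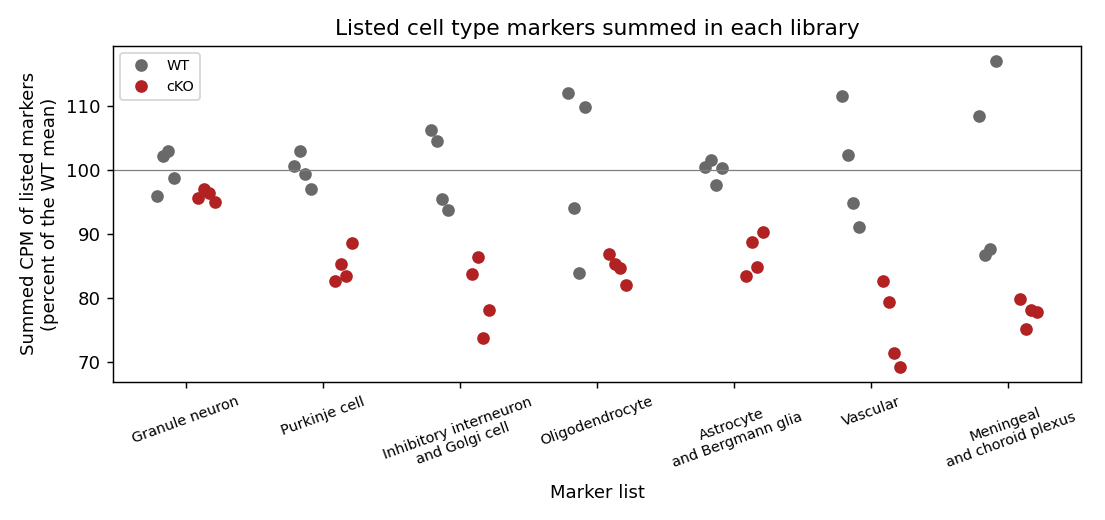
Summed CPM of the listed markers of 7 cell types in each WT (grey) and cKO (red) library, as percent of the WT mean of that list (y axis, not starting at 0). The cKO libraries lie below all WT libraries for Purkinje cell, interneuron, astrocyte, vascular and meningeal markers, and overlap WT for granule neuron and oligodendrocyte markers. Only markers that the authors' test called enter, and all but those of granule neurons had been called lower or mixed with none higher.

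The cKO was compared with WT to find the genes that depend on this remodeller in the cerebellum, and the table showed rises of weakly expressed genes and smaller shifts, in both directions, of abundant ones. Listed genes made up 20.3% of the features tested, 11.0% higher (2990) and 9.29% lower (2518). Limma passed 2214 higher genes (8.17%) and 1365 lower genes (5.04%). At least 2-fold differences were seen for 868 higher genes (3.20%) and 170 lower genes (0.627%). These shares are the background for each list below. List sizes count members known to the reference, whether or not they were among the features tested, so the 2 kinds of share have unlike denominators.

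When the listed genes were divided by mean level into 5 groups of equal size, the lowest group held 825 higher and 277 lower genes, with median differences of 1.11 and -0.80. In this group 640 genes were at least 2-fold higher and 129 at least 2-fold lower. The other 4 groups were nearly even, with 571 higher and 530 lower genes in the second and 518 and 584 in the highest. In the highest group the median differences were 0.27 and -0.24, and 8 genes were 2-fold higher and 4 were 2-fold lower. A weakly expressed gene has to differ by more to enter the table, so the sizes of these differences follow in part from the test that chose the genes.

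**Figure D2:**
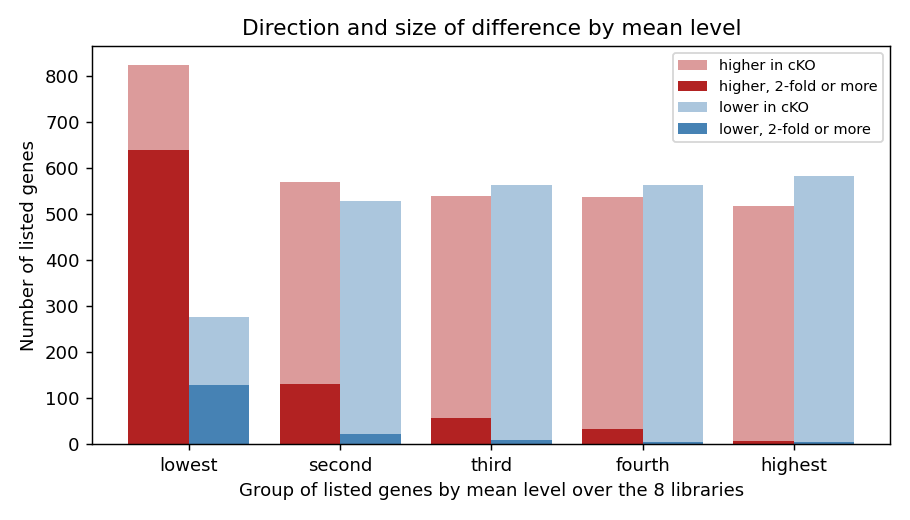
Number of listed genes higher (red) or lower (blue) in cKO in each of 5 equal groups by mean level over the 8 libraries, with the dark part of each bar giving those that differed by at least 2-fold. Higher genes outnumber lower ones by 825 to 277 in the lowest group and the directions are nearly even in the other 4.

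Most noncoding classes held more higher than lower genes. Of 5018 listed protein-coding genes 2640 were higher and 2378 lower. Of 149 intergenic noncoding RNAs 118 were higher and 31 lower, of 123 antisense RNAs 78 and 45, of 69 processed transcripts 50 and 19, and of 90 pseudogenes 63 and 27. Of 17 microRNA genes 11 were higher and 6 lower, and of 26 genes of other classes 22 and 4. Small nucleolar RNAs, which have no poly(A) tail of their own, were even at 8 and 8. All these classes lay below the median level of protein-coding genes, 4.92 log2 CPM. Among them the median level was lowest for small nucleolar RNAs (-2.08) and highest for intergenic RNAs (0.82). In the lowest of the 5 level groups above, 825 genes were higher and 277 lower. Whether low level accounts for the share of higher genes in these classes was not tested. Counting by strand is not stated, so reads of an antisense RNA and of its partner gene cannot be told apart.

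Some genes were close to silent in WT and read in every cKO library. No WT read was found for 79 listed genes, 38 of them protein coding, and no cKO read for 15. At most 10 reads over the 4 WT libraries and at least 100 over the 4 cKO libraries were found for 18 genes, and no gene did the reverse. Nhlh1, a helix-loop-helix transcription factor of newly made neurons, led them with 1, 4, 1 and 3 reads in WT libraries 1 to 4 and 1050, 1131, 1072 and 1152 in cKO libraries 1 to 4. Kcnj5, a subunit of G-protein-gated potassium channels, had 3, 1, 4 and 1 reads in WT and 100, 139, 106 and 121 in cKO. Nppb, which encodes the B-type natriuretic peptide of heart muscle, had 1, 1, 2 and 0 and 88, 72, 88 and 115, and Otog, which encodes otogelin of the inner ear, had 0, 2, 2 and 2 and 65, 57, 49 and 60. Padi3, an enzyme of hair follicles and skin that converts arginine residues to citrulline, had no WT read and 35, 44, 40 and 39 in cKO. With 3 reads over the group as the floor of a count of 0, Padi3 was at least 53.8-fold higher. In each of these 5 genes the lowest cKO library exceeded the highest WT library many times over. Gm8730 was an exception among the 18, with 66, 84, 0 and 1 reads in cKO libraries 1 to 4 and 1 WT read in all. It did not pass limma (adjusted p = 0.346). Otog, Nppb, Kcnj5, Padi3 and Gm8730 were named after their values were seen.

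The promoters of 3 near-silent genes follow, with that of the keratin gene Krt8, to show the sequence at the annotated starts of genes with few WT reads. Duoxa2 did not pass limma (adjusted p = 0.103). Each line runs 5′ to 3′ on the gene's strand from 250 bases before the annotated start to 50 after it, from RefSeq on GRCm38.p6. Capitals mark matches, on either strand, to TATAAA (the TATA box core), TGANTCA (the AP-1 element), CACGTG (an E-box), TGACG (part of the cyclic AMP response element) or GGGCGG (the GC box, written CCGCCC on the other strand). Nhlh1 lies at chr1:172057547-172057846 on the minus strand, Duox2 at chr2:122298178-122298477 on the minus strand, Duoxa2 at chr2:122298650-122298949 on the plus strand and Krt8 at chr15:102004293-102004592 on the minus strand.
Nhlh1: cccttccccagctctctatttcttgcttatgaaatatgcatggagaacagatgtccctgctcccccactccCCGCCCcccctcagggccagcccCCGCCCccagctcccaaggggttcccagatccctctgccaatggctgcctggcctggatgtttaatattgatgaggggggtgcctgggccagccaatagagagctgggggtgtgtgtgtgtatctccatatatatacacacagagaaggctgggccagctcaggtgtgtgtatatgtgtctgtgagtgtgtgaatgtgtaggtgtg
Duox2: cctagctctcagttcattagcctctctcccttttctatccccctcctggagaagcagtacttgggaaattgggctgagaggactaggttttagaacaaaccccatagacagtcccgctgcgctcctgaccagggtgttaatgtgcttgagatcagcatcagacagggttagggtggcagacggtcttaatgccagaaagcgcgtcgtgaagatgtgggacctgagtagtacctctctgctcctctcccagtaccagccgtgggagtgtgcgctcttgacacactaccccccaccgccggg
Duoxa2: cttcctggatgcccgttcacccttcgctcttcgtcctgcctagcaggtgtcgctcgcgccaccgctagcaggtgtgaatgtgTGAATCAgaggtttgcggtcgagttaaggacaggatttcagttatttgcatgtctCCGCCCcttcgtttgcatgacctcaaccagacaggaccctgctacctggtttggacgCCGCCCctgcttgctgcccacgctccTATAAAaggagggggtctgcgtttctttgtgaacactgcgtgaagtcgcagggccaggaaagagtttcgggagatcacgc
Krt8: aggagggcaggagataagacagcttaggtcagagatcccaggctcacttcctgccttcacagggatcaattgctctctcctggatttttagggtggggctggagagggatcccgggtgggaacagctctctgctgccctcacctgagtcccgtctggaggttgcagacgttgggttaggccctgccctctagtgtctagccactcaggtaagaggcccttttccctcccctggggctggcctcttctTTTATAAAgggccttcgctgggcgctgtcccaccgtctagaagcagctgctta
Nhlh1 held GC boxes alone, Duox2 none of the 5 motifs, Duoxa2 an AP-1 element, GC boxes and a TATA box core, and Krt8 a TATA box core, matched on both strands. Of the 17492 protein-coding promoters of the same table, GGGCGG occurred in 46.3%, TGACG in 23.8%, TATAAA in 13.3%, CACGTG in 7.90% and TGANTCA in 7.08%. A match describes these letters and shows no binding.

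Adjacent listed genes often shared their direction. Of 1351 pairs of listed protein-coding genes that are next to each other in RefSeq order without overlap, 840 (62.2%) had the same direction, against 50.1% over all pairs of these listed genes. Overlapping neighbours shared direction in 109 of 158 pairs (69.0%), and there reads of one gene can be counted for the other. In 30 neighbour pairs both genes were at least 4-fold higher, 27 of them apart. Duox2, a thyroid and airway oxidase that makes hydrogen peroxide, had 2, 1, 1 and 2 reads in WT libraries 1 to 4 and 50, 42, 40 and 44 in cKO. Its maturation factors Duoxa2 and Duoxa1, which lie beside it, had 0 and 8 reads over the WT libraries and 14 and 80 over the cKO libraries, where Duoxa1 passed limma and Duoxa2 did not. Ush1c, Otog and Myod1, neighbours in a row, had 4, 6 and 2 reads over WT and 65, 231 and 47 over cKO. The serine protease genes Prss33 and Prss41 had 5 and 43 reads in WT and 106 and 585 in cKO, and the lectin genes Mgl2 and Clec10a had 80 and 46 in WT and 816 and 272 in cKO. The keratin genes Krt7 and Krt83 had 13 and 0 in WT and 106 and 14 in cKO. Near-identical family members such as Mgl2 and Clec10a can exchange reads, so the split between them is uncertain. These pairs were named after their values were seen.

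Fold changes favour weakly expressed genes, so the genes that gained and lost the most CPM were also taken. Long transcripts give more reads, so this order is of reads and not of molecules. Snhg11, a neuronal noncoding RNA that hosts small nucleolar RNAs, stood at 1210.1, 1097, 1378 and 1286 CPM in WT libraries 1 to 4 and at 2782, 2489, 2778 and 2951 CPM in cKO libraries 1 to 4. The genotypes did not overlap, and the gain of 1507 CPM came with a log2 rise of 1.15 ± 0.08 (limma adjusted p = 7.82e-05). Ttc3, a ubiquitin ligase gene, stood at 878, 833, 748 and 768 CPM in WT and 1162, 1290.1, 1294 and 1226 in cKO. Calb2, the calcium buffer calretinin found in granule neurons, stood at 426, 424, 463 and 388 CPM in WT and 756, 829, 849 and 869 in cKO, and Gprasp1, which sorts G-protein-coupled receptors to lysosomes, at 385, 364, 371 and 359.9 and 644, 723, 728 and 710.0. In each the lowest cKO library lay above the highest WT library, with log2 rises of 0.63 ± 0.07, 0.96 ± 0.07 and 0.92 ± 0.06.

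Cnr1, the cannabinoid receptor that lowers transmitter release at parallel fibre endings, stood at 536, 557, 546 and 537 CPM in WT and 797, 836, 879.7 and 850.2 in cKO, a log2 rise of 0.63 ± 0.05. Other genes with large gains were the kinesin motors Kif5a and Kif5c, which rose by 0.40 ± 0.05 and 0.33 ± 0.05, and the complexin Cplx1, which clamps vesicle fusion and rose by 0.54 ± 0.07. Nrep rose by 0.37 ± 0.07. The RNA-binding protein gene Elavl2, which belongs to the neuronal Elav family, rose from 31.97, 27.8, 27.6 and 27.5 to 260.4, 267, 310.3 and 256 CPM. Yam1, a noncoding RNA, had the largest gain in CPM of all, but overlapped between genotypes, at 6051, 6682, 4636 and 7042 CPM in WT and 9884, 9465, 7101 and 6541 in cKO, and did not pass limma (adjusted p = 0.211). Its cKO libraries 1 and 2 were the highest of the 8, and cKO libraries 3 and 4 lay among the WT libraries or just above them.

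Among losses in CPM, Itpr1, the calcium release channel of the endoplasmic reticulum that is most abundant in Purkinje cells, stood at 4366, 4520.4, 4511 and 4338 CPM in WT and 3625, 3673, 3638 and 3969.8 in cKO, a log2 fall of 0.25 ± 0.05. Cbln3, a secreted partner of the synapse organizer Cbln1 in granule neurons, stood at 1439, 1561, 1461 and 1413 CPM in WT and 993, 1014, 980.4 and 942 in cKO and fell by 0.58 ± 0.05. The genotypes did not overlap in either gene. Tubb4a, a beta-tubulin of neurons and oligodendrocytes, fell by 0.48 ± 0.07, the adhesion gene Cadm3 by 0.30 ± 0.05, and the brain ring finger gene Rnf112 by 1.28 ± 0.10, from 525, 548, 722 and 635 CPM in WT to 251, 233, 244 and 265 in cKO. WT library 3 was the highest for Rnf112, and the cKO libraries were close together. The kinase gene Camk4 and the glycolytic gene Aldoc, counted above in the astrocyte and Bergmann glia list, differed by -0.40 ± 0.08 and -0.22 ± 0.06 (limma adjusted p = 0.0171 and 0.0388). These data do not show which cells the Aldoc reads come from. Camk4 lost the call without WT library 4, and Aldoc without any library other than cKO library 2. The mitochondrial transcripts mt-Cytb, mt-Nd2 and mt-Nd4 and the myelin gene Mbp lost many reads but overlapped between genotypes, with differences of -0.26 ± 0.09, -0.22 ± 0.12, -0.21 ± 0.08 and -0.23 ± 0.10, none past limma (adjusted p = 0.1, 0.45, 0.13 and 0.259).

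**Figure D3:**
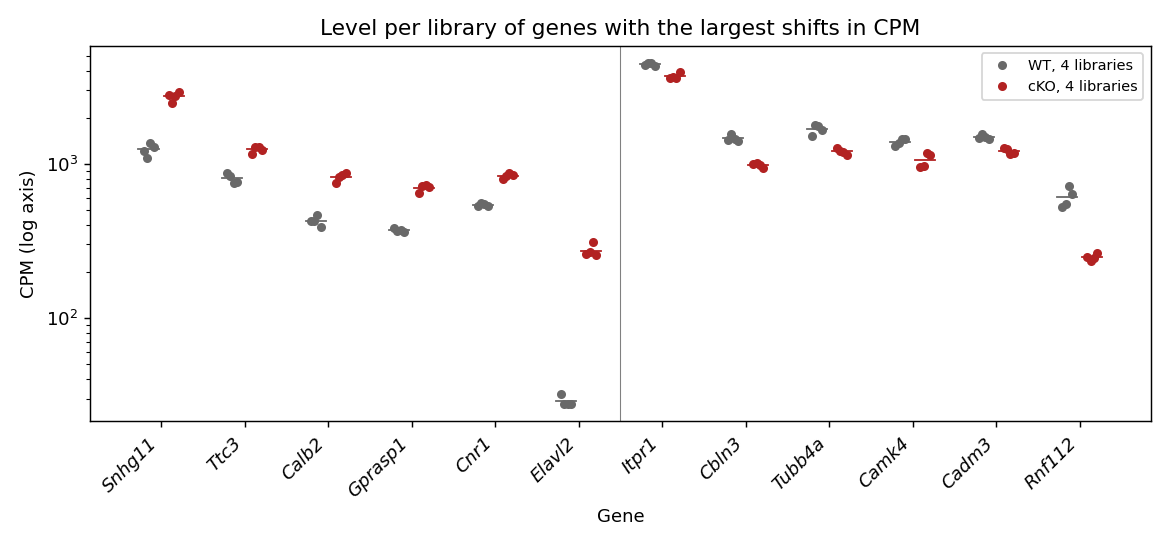
Level in CPM (log axis) of 12 genes among those that gained (left) or lost (right) the most CPM, with 1 point per WT (grey) or cKO (red) library and a line at the mean of the 4. For Snhg11 all cKO libraries lie above 2400 CPM and all WT libraries below 1400 CPM.

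Below the leading genes by fold change, ranks 13 to 24 among genes at or above the median level were taken as the next layer. The 12 rises ran from 1.73 ± 0.06 for Pde1b, a phosphodiesterase switched on by calmodulin, to 1.41 ± 0.13 for Csmd2, a synaptic membrane protein gene. Between them came, among others, the basement membrane proteoglycan Hspg2, the small heat shock protein Hspb8, the remodeller Chd5, the proline synthesis enzyme Aldh18a1, the guidance gene Sema5b, the ring finger gene Trim66, the nuclear envelope gene Syne4, the cell cycle phosphatase Cdc25b and the synaptic gene Arc. Pde1b stood at 37.9, 34.9, 34.4 and 38.96 CPM in WT and 121, 119, 119 and 125 in cKO, with no overlap. Hspg2 stood at 45.4, 47.7, 42.5 and 56.3 CPM in WT and 166, 131, 176 and 159 in cKO, again with no overlap.

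The 12 falls of the same ranks ran from -1.06 ± 0.10 for the kinesin-like gene Kif26b to -0.89 ± 0.06 for Rims4, a small member of the active zone Rim family. Between them came Tmem108, Cnpy1, Tmem163, Golm1, Tmem62, Ccdc74a, the cadherin gene Cdh8, Sowaha, the matrix proteoglycan gene Spock1 and the synaptic adhesion gene Slitrk1. Cnpy1, named for the canopy genes of the midbrain and hindbrain boundary, stood at 406, 418, 463 and 425 CPM in WT and 202, 205, 221 and 216 in cKO, and Spock1 at 279, 295, 272 and 279 and 164, 163, 135 and 137. In all 24 genes the cKO and WT libraries did not overlap, and limma passed each of them with and without any 1 library. Non-overlap held for 78.0% of all listed genes, which were chosen for differing.

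Gene groups came next, as 45 lists of members in 7 sections, each with the number of members that were higher and lower. Every gene said to have risen or fallen passed limma at an adjusted p of at most 0.0144, and of at most 0.0429 with any 1 library left out, across 178 named genes. List members were named only where their call held without any 1 library. For them this outcome was set by that choice and does not measure reproducibility. Regulators of transcription and chromatin were listed mostly as lower, with 35 higher and 71 lower entries over 10 lists and a median of -0.20. Totals over several lists, here and below, count listed entries only and were not set against the shares of all features. Among these 10 lists, the DNA methylation and forkhead lists held a share of listed members not far above the 20.3% of all features. Of 39 remodelling ATPases and SWI/SNF subunits 2 were higher and 10 lower, 2 and 7 of them past limma. Smarca4, the SWI/SNF ATPase Brg1, stood at 265, 285, 275 and 275 CPM in WT and 239, 214, 208 and 217 in cKO and fell by 0.33 ± 0.06, and the subunit Brd7 fell by 0.25 ± 0.05. The 2 higher members were Dpf1, a subunit of the neuronal form of the complex, up by 1.11 ± 0.08, and the ISWI ATPase Smarca1, up by 0.59 ± 0.08. Of 41 histone lysine methyltransferases and demethylases 2 were higher and 12 lower, 2 and 5 past limma. The higher ones were Suv39h1, which methylates histone H3 lysine residues in heterochromatin, up by 0.73 ± 0.06, and Kdm1b, up by 0.41 ± 0.06. Of 33 Polycomb proteins 7 were higher and 7 lower, with Phf19 and Phf1 up by 0.97 ± 0.11 and 0.69 ± 0.06, and Cbx6 and Aebp2 down, by 0.36 ± 0.06 and 0.30 ± 0.05. Of 20 DNA methylation genes 2 were higher and 3 lower.

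Transcription factor families were divided. Of 19 Sox factors 2 were higher and 10 lower, 1 and 4 past limma, with Sox3 and Sox1, factors of neural progenitors, down by 0.94 ± 0.15 and 0.45 ± 0.09. Of 11 nuclear factor I, Zic and Zeb genes 1 was higher and 5 lower. The higher one was Nfia, up by 0.45 ± 0.06, and Zic2, a granule neuron factor, fell by 0.50 ± 0.06. Of 33 neurogenic helix-loop-helix genes 5 were higher and 5 lower. Atoh7, best known from retinal ganglion cells, rose by 0.82 ± 0.08, and the Notch target Hey1 fell by 0.33 ± 0.06. Of 44 forkhead genes 5 were higher and 6 lower. Foxo6 rose by 2.13 ± 0.22, and Foxp1 and Foxo1 fell by 0.57 ± 0.07 and 0.57 ± 0.07. Foxn1, the thymus factor, had no WT read and 5, 7, 5 and 6 reads in cKO libraries 1 to 4. Of 17 Kruppel-like factors 4 were higher and 4 lower, with Klf10 up by 0.59 ± 0.08 and Klf13 down by 0.59 ± 0.05. Of 27 neuronal RNA-binding proteins 5 were higher and 9 lower. Within the Elav family, Elavl2 rose by 3.24 ± 0.08 while Elavl4 stood at 106, 103, 103 and 107 CPM in WT and 63.6, 58.5, 64.04 and 63.7 in cKO and fell by 0.75 ± 0.05, and the splicing regulator Celf1 fell by 0.62 ± 0.05.

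The cytosolic ribosome and proteasome lists each held listed members of 1 direction only. Of 82 cytosolic ribosomal protein genes 28 were listed, all higher, 13 of them past limma, with differences from 0.21 to 0.65 and a median of 0.34. Their median deviation from the WT mean was 0.20, 0.02, -0.13 and -0.09 in WT libraries 1 to 4, and 0.26, 0.49, 0.38 and 0.35 in cKO libraries 1 to 4. WT library 1 lay just below cKO library 1, and the median difference was 0.21 within libraries 1 and 2 and 0.47 within libraries 3 and 4. Rps15a stood at 73.2, 70.5, 74.99 and 71.7 CPM in WT and 107, 107, 110.2 and 114 in cKO and rose by 0.59 ± 0.05, and Rps24, Rpl27a and Rps3 rose by 0.65 ± 0.09, 0.45 ± 0.08 and 0.38 ± 0.07. Ribosomal protein genes have many processed copies in the genome, so their counts are uncertain. Of 39 proteasome subunits 14 were listed (35.9%), all higher, against 11.0% of all features listed as higher, with a median of 0.23. Limma passed 3 of the 39, near the 8.17% of all features that it passed as higher. Psma3, a subunit of the core particle, stood at 20.4, 18.7, 17.8 and 19.8 CPM in WT and 22.8, 26.7, 24.4 and 26.1 in cKO and rose by 0.38 ± 0.07. The median difference of the proteasome genes was 0.14 within libraries 1 and 2 and 0.32 within libraries 3 and 4.

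Of 77 mitochondrial ribosomal protein genes 10 were listed, 1 higher and 9 lower, 5 of the lower ones past limma, with a median of -0.32, which became -0.20 with a pseudocount of 5 CPM. The lower ones were 11.7% of the list and those past limma 6.49%, near the 9.29% and 5.04% of all features. Mrps17 stood at 30.7, 30.7, 32.3 and 28.6 CPM in WT and 22.2, 24.9, 24.9 and 22.6 in cKO and fell by 0.37 ± 0.06, and Mrps36 fell by 0.42 ± 0.07. The table lists 12.99% of this list's members, below the 20.3% of all features, so the 10 listed ones stand for few of the 77. Of 38 respiratory complex I subunits 3 were higher and 1 lower, 10.5% of the list against 20.3% of all features. Ndufb2 rose by 0.33 ± 0.06. Of 41 subunits of complexes III and IV and ATP synthase 5 were higher and 4 lower, 22.0% of the list, near the 20.3% of all features. The 2 that rose most were tissue forms of complex IV, the testis form Cox6b2, from 6.51, 5.27, 5.08 and 5.36 to 23.2, 23.4, 23.6 and 25.95 CPM, and the lung form Cox4i2, up by 1.32 ± 0.17. Of 19 glycolysis enzymes 4 were higher and 2 lower, with the phosphofructokinase gene Pfkp up by 0.33 ± 0.06. Of 22 cholesterol synthesis enzymes 5 were higher and 2 lower, and Fdps fell by 0.55 ± 0.08.

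**Figure D4:**
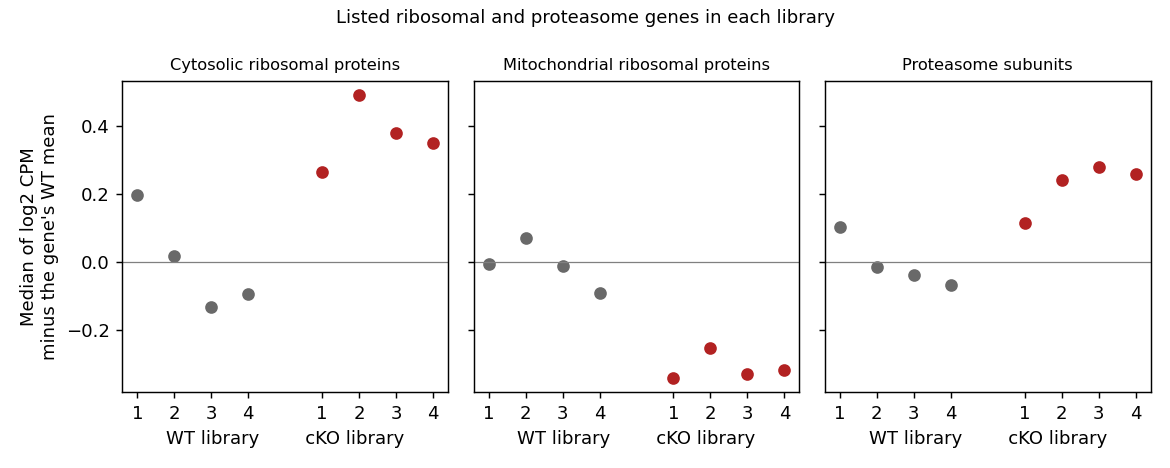
Median over listed members of log2 CPM minus the gene's WT mean (y axis) in each WT (grey) and cKO (red) library for 28 cytosolic ribosomal, 10 mitochondrial ribosomal and 14 proteasome genes. Cytosolic ribosomal medians run from -0.13 to 0.20 in WT and from 0.26 to 0.49 in cKO, and mitochondrial ones lie lower in all cKO libraries than in all WT libraries. Only listed members enter, so the side on which cKO lies follows from the authors' calls, and 67 mitochondrial ribosomal genes are not shown.

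Excitability and second messenger genes were listed more often as higher, with 68 higher and 38 lower entries over 9 lists. Of 14 sodium channel genes 4 were higher and 4 lower, and their median of 0.37 turned to -0.054 with a pseudocount of 5 CPM. Among the higher ones Scn11a, a channel of pain-sensing neurons, stood at 1.99, 2.38, 2.70 and 1.83 CPM in WT and 10.9, 9.46, 12.4 and 14.4 in cKO, and Scn3b rose by 2.18 ± 0.13. Scn2a1, which encodes a channel of axons, stood at 510.4, 527, 546 and 549 CPM in WT and 399, 402, 422 and 399 in cKO and fell by 0.39 ± 0.05. Of 26 calcium channel genes 9 were higher and 5 lower, 8 and 1 past limma. The auxiliary beta subunits differed in direction: Cacnb1 and Cacnb3 rose by 0.55 ± 0.06 and 0.54 ± 0.06, and Cacnb4, the cerebellar beta subunit, stood at 409, 424, 414 and 409 CPM in WT and 317, 319, 348 and 329 in cKO and fell by 0.34 ± 0.05. Of 22 Trp channel genes 4 were higher and 4 lower, with Trpv6 and Trpv2 up by 1.55 ± 0.26 and 0.50 ± 0.07 and no lower one past limma.

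Receptors and their second messengers followed. Of 60 monoamine, acetylcholine, adenosine and opioid receptor genes 12 were higher and 3 lower, 10 and 1 past limma, with a median of 0.64, which became 0.41 and 0.18 with pseudocounts of 1 and 5 CPM. Oprl1, the nociceptin receptor, stood at 16.02, 14.5, 12.1 and 12.8 CPM in WT and 59.5, 63.02, 62.5 and 61.7 in cKO, and the muscarinic receptor Chrm3 fell by 1.09 ± 0.18. Of 10 metabotropic glutamate and GABA-B receptor genes 2 were listed, both lower. Of 33 G-protein subunits 8 were higher and 3 lower, with Gnb3, a beta subunit of retinal cones, up from 0.332, 0.793, 0.707 and 0.747 to 13.8, 11.5, 13.4 and 14.8 CPM and Gng4 up by 2.90 ± 0.16. Of 21 regulators of G-protein signalling 5 were higher and 4 lower. Rgs11 and Rgs17 rose by 2.42 ± 0.10 and 1.10 ± 0.08, and Rgs8, a Purkinje cell gene, fell by 0.26 ± 0.05.

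Of 41 cyclases and phosphodiesterases 14 were higher and 7 lower, 11 and 2 past limma. Pde4a, which breaks down cyclic AMP, stood at 86.9, 84.3, 88.4 and 89.8 CPM in WT and 205, 184, 182 and 195 in cKO and rose by 1.13 ± 0.06, and Pde2a and Pde3b fell by 0.35 ± 0.06 and 0.29 ± 0.06. Of 31 kinases of the A, C, G and calmodulin-dependent families 12 were higher and 6 lower, 11 and 4 past limma. Camkv, a kinase-like protein of synapses without known kinase activity, stood at 5.38, 4.26, 4.31 and 5.02 CPM in WT and 45.3, 42.2, 37.01 and 40.1 in cKO, and Camk1d rose by 0.55 ± 0.05. Camkk2, the kinase that activates calmodulin kinases, stood at 356, 369, 404 and 357 CPM in WT and 273, 261, 265 and 265 in cKO and fell by 0.48 ± 0.06, and Prkg1 fell by 0.36 ± 0.06.

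Synaptic and surface proteins were listed mostly as lower, with 15 higher and 35 lower entries over 3 lists and a median of -0.25. Of 30 postsynaptic scaffold genes 4 were higher and 10 lower, 4 and 7 past limma. Shank3, a scaffold of glutamate synapses, stood at 429, 452, 488 and 443 CPM in WT and 355, 340.3, 321 and 339.7 in cKO and fell by 0.42 ± 0.06, and Dlgap1, which binds Shank proteins, fell by 0.35 ± 0.05. Akap5, an anchor of protein kinase A, and Homer2 rose by 2.12 ± 0.09 and 0.65 ± 0.07. Of 45 synaptic adhesion genes 6 were higher and 15 lower, 6 and 10 past limma. Slitrk1 stood at 82.4, 87.4, 78.98 and 80.5 CPM in WT and 48.02, 49.03, 38.9 and 40.8 in cKO, and the calsyntenin gene Clstn2 fell by 0.71 ± 0.07. Lrfn1 and the receptor phosphatase Ptprf rose by 0.75 ± 0.06 and 0.59 ± 0.06. Of 35 contactins and immunoglobulin adhesion genes 5 were higher and 10 lower. L1cam, an axonal adhesion gene, stood at 186, 205, 214 and 199.5 CPM in WT and 332, 304, 339 and 355 in cKO and rose by 0.73 ± 0.07, Opcml rose by 0.46 ± 0.05, and Sdk2 and Kirrel fell by 0.54 ± 0.09 and 0.27 ± 0.05.

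Matrix and guidance genes were even in direction, with 49 higher and 52 lower entries, and held some of the widest differences. Of 44 collagen genes 10 were higher and 14 lower. Col12a1 stood at 30.97, 33.6, 31.3 and 33.5 CPM in WT and 118, 117, 132 and 147 in cKO and rose by 1.98 ± 0.08, and the cartilage gene Col9a1 rose by 3.09 ± 0.15. Col27a1 stood at 51.97, 54.97, 49.4 and 55.7 CPM in WT and 17.4, 15.4, 15.7 and 16.1 in cKO and fell by 1.71 ± 0.06. The basement membrane gene Col4a2 fell by 0.30 ± 0.06. Listed vascular markers, all called lower, were also lower in these libraries, and a link to Col4a2 was not tested. Of 37 laminins and integrins 9 were higher and 8 lower, with Lama5 and Itga9 up by 2.46 ± 0.08 and 1.73 ± 0.14 and Itgav down by 0.32 ± 0.06. Of 44 proteoglycans and other matrix genes 10 were higher and 13 lower. Hmcn2, a hemicentin, stood at 1.66, 0.793, 2.38 and 2.78 CPM in WT and 243, 196, 212 and 285 in cKO, Smoc1 rose by 2.34 ± 0.10, and Svep1 stood at 59.3, 63.6, 63.4 and 63.3 CPM in WT and 27.1, 23.98, 24.8 and 23.9 in cKO.

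Of 31 semaphorins, plexins and their partners 9 were higher and 8 lower, 7 and 3 past limma. The secreted semaphorins split, with Sema3f and Sema3g up by 2.32 ± 0.11 and 1.99 ± 0.10 and Sema3a down by 0.48 ± 0.09. Nrp2, a receptor for Sema3f, stood at 21.8, 23.1, 20.7 and 20.2 CPM in WT and 14.4, 9.93, 11.6 and 9.17 in cKO and fell by 0.94 ± 0.13. Of 22 Eph receptors and ephrins 6 were higher and 3 lower. Ephb3 stood at 5.38, 3.97, 4.11 and 4.62 CPM in WT and 30.3, 30.1, 25.2 and 27.95 in cKO, Epha10 rose by 1.53 ± 0.13, and Epha3 stood at 26.2, 28.2, 27.9 and 28.8 CPM in WT and 7.72, 13.04, 15.5 and 10.8 in cKO and fell by 1.27 ± 0.19. Epha5 fell by 0.51 ± 0.08. Of 21 netrin, Slit and Robo genes 5 were higher and 6 lower, with the netrin-G genes Ntng2 and Ntng1 up by 0.84 ± 0.11 and 0.45 ± 0.05, and Ntn4 and Robo1 down by 0.62 ± 0.05 and 0.51 ± 0.06.

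Among signalling pathways, the Wnt list had 8 higher and 6 lower of 57 genes, 8 and 1 past limma. Listed genes were 24.6% of the Wnt list, against 20.3% of all features. The ligand Wnt9a stood at 1.33, 1.15, 1.41 and 1.49 CPM in WT and 7.36, 6.69, 7.12 and 8.84 in cKO, the secreted antagonist Sfrp4 rose by 2.19 ± 0.18, and the receptor Fzd7 fell by 0.52 ± 0.06. Of 60 TGF-beta and BMP genes 9 were higher and 9 lower, with the ligand Bmp2 up by 1.51 ± 0.17 and the ligands Bmp5 and Tgfb3 down by 0.96 ± 0.11 and 0.69 ± 0.08. The receptor Acvr1b rose by 0.42 ± 0.06. Of 34 Hedgehog and Notch genes 2 were higher and 11 lower, 2 and 6 past limma. The higher ones were the Notch ligand Jag2, up by 1.21 ± 0.07, and Numbl, up by 0.47 ± 0.06. Boc, a co-receptor for Sonic hedgehog, stood at 112, 119, 129 and 125 CPM in WT and 69.01, 73.6, 64.3 and 68.5 in cKO and fell by 0.82 ± 0.06, and Notch2, a receptor of granule neuron progenitors and glia, fell by 0.50 ± 0.08.

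Of 27 FGF ligands and receptors 4 were higher and 3 lower, 25.9% of the list against 20.3% of all features. The intracellular family members that bind sodium channels differed in direction, Fgf13 up by 0.63 ± 0.07 and Fgf12 down by 0.29 ± 0.05. Of 39 neurotrophin, IGF and neuregulin genes 4 were higher and 12 lower, 3 and 5 past limma. Pdgfa, a ligand for oligodendrocyte precursors, stood at 25.7, 21.6, 21.9 and 20.8 CPM in WT and 10.9, 13.4, 10.7 and 10.97 in cKO and fell by 0.96 ± 0.10. Its receptor gene Pdgfra, a marker of those precursors, fell by 0.39 ± 0.08. Nrg2 fell by 0.41 ± 0.06, and Nrg3 and the receptor Erbb3 rose by 0.45 ± 0.09 and 0.68 ± 0.11.

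Of 36 interferon response genes 3 were higher and 7 lower, 27.8% of the list against 20.3% of all features. Irf1 and the RNA sensor Ddx58 rose by 1.75 ± 0.17 and 0.95 ± 0.09, and the transcription factor Stat2 stood at 101, 111, 129 and 116 CPM in WT and 78.6, 70.2, 76.3 and 81.9 in cKO and fell by 0.57 ± 0.09. Of 33 Bcl2 and caspase genes 9 were higher and 2 lower, 8 and 2 past limma. Hrk, which promotes death of neurons, stood at 8.77, 12.05, 9.51 and 6.99 CPM in WT and 35.3, 37.96, 42.4 and 42.4 in cKO and rose by 2.09 ± 0.15. Bcl2l15 stood at 37.7, 46.7, 46.7 and 44.9 CPM in WT and 14.1, 11.5, 15.2 and 12.8 in cKO and fell by 1.71 ± 0.11. RNA levels of these genes do not measure cell death.

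Cytoskeletal genes were listed mostly as higher, with 37 higher and 10 lower entries over 3 lists and a median of 0.24. Of 58 kinesins and dyneins 15 were higher and 5 lower, 11 and 3 past limma. The kinesin light chain Klc3, known from sperm, stood at 0.399, 0.288, 0.257 and 0.272 CPM in WT and 5.98, 6.48, 5.46 and 4.45 in cKO, Kif19a rose by 1.55 ± 0.10, and Kif26b and Kif13a fell by 1.06 ± 0.10 and 0.34 ± 0.05. Of 39 tubulins and microtubule-associated genes 12 were higher and 4 lower. The tubulins Tubb2a, at 104, 104, 95.8 and 92.03 CPM in WT and 143, 153, 179 and 168 in cKO, and Tubb4a, at 1526, 1791, 1750.2 and 1672 and 1272, 1212, 1188 and 1147, moved in opposite directions. Tubulin genes are close copies, and their split of reads is uncertain. Stmn4, a stathmin that binds free tubulin, rose by 0.77 ± 0.08, and Map7d1 fell by 0.37 ± 0.06. Of 59 intermediate filament and keratin genes 10 were higher and 1 lower, 9 of the higher ones past limma. Listed genes were 18.6% of this list, below the 20.3% of all features. Krt8, a keratin of simple epithelia, stood at 0.399, 0.216, 0 and 0.339 CPM in WT and 8.02, 8.58, 5.82 and 6.58 in cKO, and Prph, peripherin of peripheral neurons, at 0.532, 0.0721, 0 and 0.204 and 5.25, 4.86, 5.46 and 8.26. Both were near 0 in WT and above every WT library in each cKO library.

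**Figure D5:**
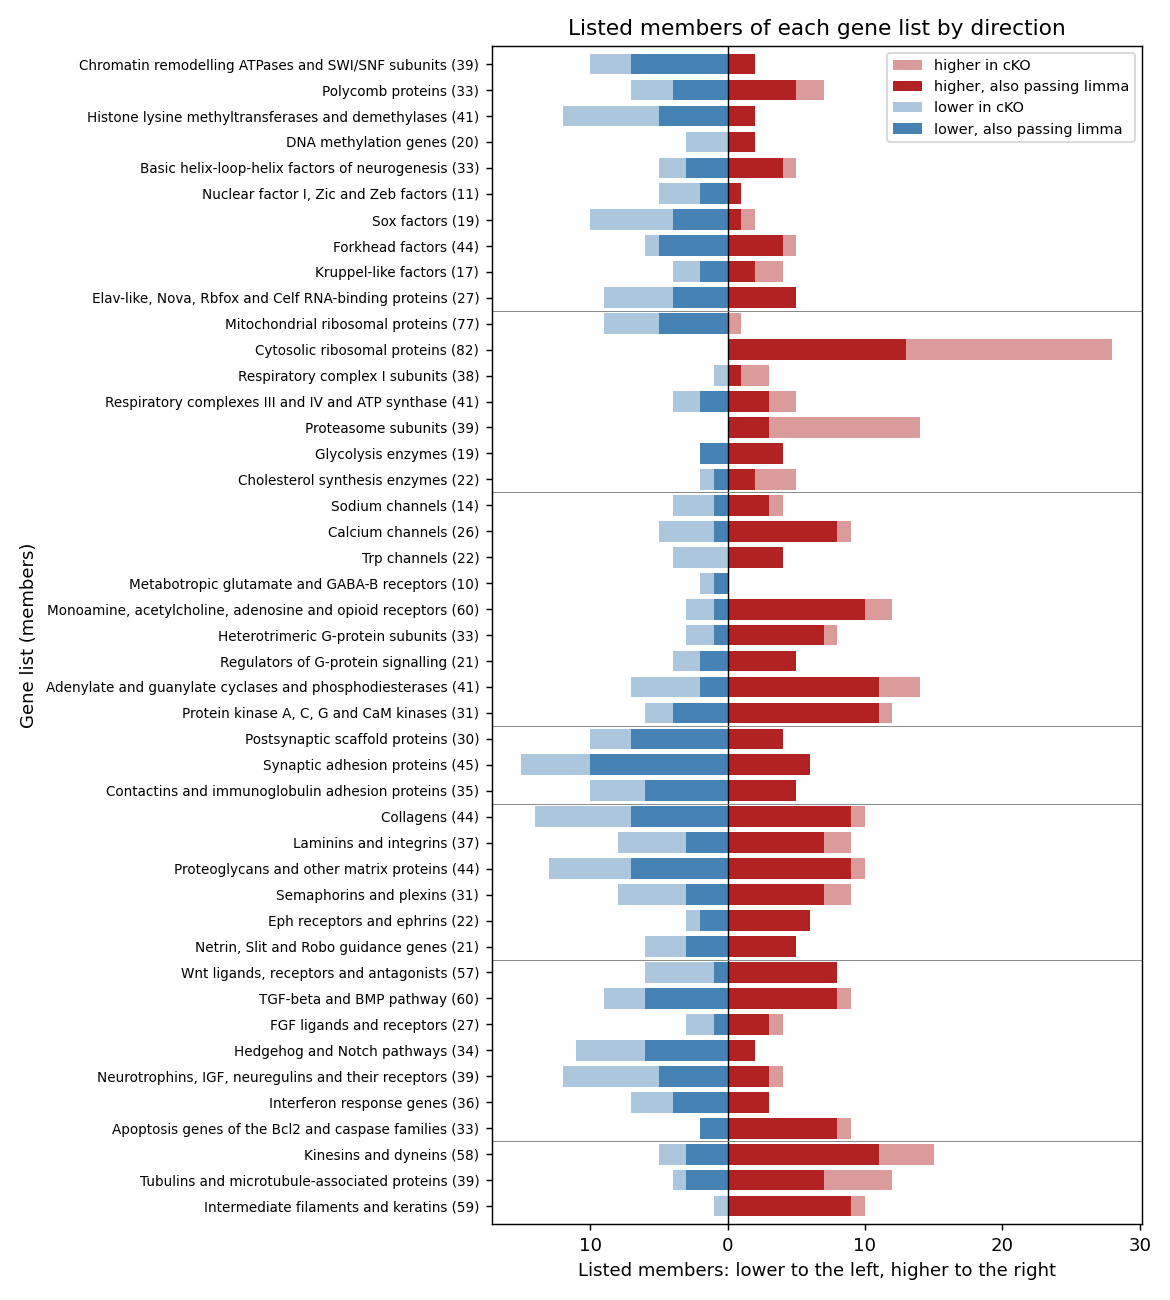
Number of listed members of each gene list that were lower (bars to the left, blue) or higher (bars to the right, red) in cKO, with the dark part of each bar for those that also passed limma and the list's size in parentheses. All 28 listed cytosolic ribosomal genes and all 14 listed proteasome genes extend to the right. The remodelling, histone methyltransferase and demethylase, and synaptic adhesion lists extend mostly to the left, and the Polycomb list is even.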

How the data were processed

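Messenger RNA of 4 WT and 4 cKO cerebella was measured. The authors deposited log2 CPM values of each library, to which a prior count had been added, next to their log2 fold change, mean log2 abundance, likelihood ratio score, p-value and adjusted p-value, per the file headers. Bowtie, edgeR, SICER, bedtools and build mm9 are named in the submitters' processing notes, without versions or roles. How reads were counted, and with which strand setting, is not given. The deposited p-values show that the table holds only genes with an adjusted p of at most 0.0499, and the ratio of adjusted to raw p, multiplied by rank, put the number tested at about 27100 features. Of 5557 lines, 49 repeats of a gene were dropped. Gene identifiers matched reference names for 5482 of 5508 genes.

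After removal of the floor (the value of 0 reads), all low values lay within 0.1 read of a whole number, which gave reads and depth. Such depth covers counting error only. Because the values are log2, limma 3.58.1 (R 4.3.3) was fitted to them in place of the count model first planned, on all listed genes and no added pseudocount, with Benjamini-Hochberg adjustment over 27100 features. Its prior rests on called genes alone. The fit was tested on simulated data. Nothing states that libraries came from separate animals, so p-values measure the spread between these samples, which may be technical. Direction was checked against the authors' fold change and differed for 0 genes.

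The members and the 54 lists were chosen with earlier results of these data known. Named genes were Chd4, the 12 with the largest gain and the 12 with the largest loss in CPM, ranks 13 to 24 by log2 fold change in each direction at or above the median level (predicted genes left out), and up to 4 members of each list by limma statistic. Of the list members, the text names those whose limma call held without any 1 library. A few genes and a gene list that this rule would name are not reported here. Alternatives were pseudocounts of 0.1, 1 and 5 CPM, limma with a trend, only genes at or above the median level, centring, stricter thresholds and folds, library subsets, each library left out and a replicate block. The library number term was added after seeing the data. Promoters and neighbour order come from RefSeq on GRCm38.p6, another build than that of the reads. Only 76.0% of the listed protein-coding genes (3813 of 5018) had a promoter in the table, so a comparison of promoter features between higher and lower genes was void and is not reported.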

Additional observations from a re-analysis of the deposited data

Results flagged for a closer look

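The highest and the lowest library of each genotype were examined for the named genes, in 372 groups of 4 libraries, and in 19 of them 1 library stood apart from the other 3 by Dixon's criterion. Chance sets apart about 1 group in 20. Values are log2 CPM, and in each sentence the range of the other 3 libraries of the same genotype follows. Chd4 was 8.06 in cKO library 1, against 7.90 in the others. The gene was lower in that library than in all WT libraries. Elavl2 was 5.005 in WT library 1, against 4.79 to 4.80, and Elavl4 5.87 in cKO library 2, against 5.99 to 6.00. Itpr1, the calcium release channel, was 11.95 in cKO library 4, against 11.82 to 11.84.

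WT library 1 was low for the G-protein subunit Gnb3 at -1.09, against -0.25 to -0.10 and for Svep1 at 5.89, against 5.99. It had no read of Otog (-2.87, against -1.92 to -1.83). In WT library 2 Gm8730 was -2.26, which is 1 read, against -2.87, which is none. WT library 3 was low for mt-Cytb at 12.67, against 12.92 to 12.94, and WT library 4 for Nrep at 9.75, against 9.88 to 9.89.

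Among cKO libraries, library 1 was high for Duox2 at 1.92, against 1.57 to 1.59. Library 2 was high for the adhesion gene Kirrel at 4.37, against 4.21 to 4.23, for the ligand Pdgfa at 3.76, against 3.44 to 3.47, and for Sox1 at 4.46, against 4.11 to 4.14. Library 3 was low for the calcium channel subunit Cacnb3 at 6.45, against 6.59 to 6.61, and for Sema3g at 4.58, against 4.70 to 4.71, and high for Scn2a1 at 8.72, against 8.64 to 8.65. Library 4 was high for Ccdc74a at 4.85, against 4.64 to 4.67, and for Cox6b2 at 4.71, against 4.55 to 4.57.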

How the results depend on the processing

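The authors' counts of 2990 higher and 2518 lower genes became 1755 and 1103 at an adjusted p under 0.001, 1339 and 676 with Bonferroni adjustment, 1380 and 457 at 1.5-fold or more, 868 and 170 at 2-fold or more, and 1329 and 1425 at or above the median level. Limma's counts of 2214 and 1365 became 1016 and 887 at or above the median level, 454 and 95 with libraries 1 and 2 only, and 842 and 247 with libraries 3 and 4 only, where 2 libraries per genotype remain. Leaving out 1 library gave 1714 to 1965 higher and 915 to 1085 lower genes. Centring on genes at or above the median level shifted differences by 0.03 and gave 2056 and 1652. Pseudocounts, the trend and the library number term kept both counts within 1.5 times of these. Chd4 differed by -0.41 with libraries 1 and 2 only (limma adjusted p = 0.177) and by -0.46 with libraries 3 and 4 only (limma adjusted p = 0.0662), and did not pass in either. The median of listed sodium channels turned from 0.37 to -0.054 with a pseudocount of 5 CPM, and of the other list medians those of the Polycomb, helix-loop-helix and Kruppel-like lists, which lay between -0.03 and 0.02, crossed 0 under some alternatives. Over all lists and alternatives 38 medians moved by more than the median SE of the list's members without a change of sign, 12 of them with a pseudocount of 5 CPM and 3 without 1 library. Among medians given above, that of monoamine, acetylcholine, adenosine and opioid receptors moved from 0.64 to 0.18 and that of mitochondrial ribosomal proteins from -0.32 to -0.20 with 5 CPM, and those of cytosolic ribosomal and proteasome genes fell to 0.21 and 0.14 with libraries 1 and 2 only. Of 180 named genes past limma, 2 lost the call without 1 library (Aldoc and Camk4), and none of the 188 named genes changed direction under the up to 18 alternatives run on it. List members were named only where their call held without any 1 library, so these counts were largely set by that choice. With libraries 1 and 2 only 109 named genes lost the call, with libraries 3 and 4 only 68, and with a pseudocount of 5 CPM Foxn1 and Krt83 (limma adjusted p = 0.0559 and 0.481).

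Same-numbered WT and cKO libraries had deviations that correlated at 0.098, 0.160, 0.131 and 0.085 for numbers 1 to 4 over all listed genes, and at -0.02, 0.369, 0.228 and 0.221 at or above the median level. In neither set was each above 0.1, so the numbers were not taken to pair the libraries, and 5 of 8 libraries correlated best with their own number. With a replicate block, limma passed 1811 higher and 1037 lower genes, and 5 named genes lost the call, Aldoc, Itgav, Itpr1, Nrg3 and Rps3 (limma adjusted p = 0.0816, 0.0509, 0.0591, 0.0598 and 0.0506). Count models with other normalizations and a low-count filter were not run, since the table holds log2 values of called genes. At 13.7 to 15.6 M reads per library, few reads limit genes near silence, where a difference of 1 read moves the level most.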
